A study of Mus musculus with 2 samples.

Results

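Amino acid catabolism and the urea cycle were followed in mouse liver through 52 genes, a list of enzymes written by name, all 52 of which had a probe among the 20652 named genes of the arrays. Each was found through the RefSeq transcript its probe is designed on, and Mut is listed in RefSeq under its newer symbol Mmut. For each group the livers of 3 male mice were pooled, and their total RNA, labelled with Cy3, was measured on a one-colour Agilent array of the mouse genome, 1 array for fasting and 1 for feeding. Fasting lasted overnight, for 14 to 16 h. The labels describe the feeding group in 2 ways, as mice given food after such a fast and as mice with free access to food. The study's text words the comparison in the first way, as fasted mice set against fasted mice that were then fed. For the study's mice as a whole the methods name young adult C57BL/6 J animals on chow diet, and the labels give neither strain nor age for these pools and no further treatment or allele. Since each group was a pool on a single array, the values have no replicate check, and no test of a difference is given.

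The liver is the main site of breakdown for most amino acids. Aminotransferases move amino groups onto glutamate, glutamate dehydrogenase and glutaminase release them as ammonia, and the urea cycle fixes ammonia into urea. The remaining carbon skeletons enter glycolysis, the citric acid cycle or ketone bodies, so that between meals amino acids serve as a source of glucose. Several of these enzymes, tyrosine aminotransferase and serine dehydratase among them, are textbook examples of genes induced by glucagon and glucocorticoids and repressed by insulin.

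The signal of a probe is its fluorescence intensity after background subtraction, in arbitrary units, and a change is the difference in log2 signal, feeding minus fasting, after quantile normalization of both arrays. The signals printed are not scaled between the arrays, whose median signals were 61.5 (fasting) and 52.8 (feeding). The change and its fold, taken after normalization, are therefore what compares the arrays, and they can differ from the ratio of the printed signals. Signals of different probes are not comparable. Of the 52 genes, 50 were well above background on both arrays, and Tdh and Amt only on the feeding array. By mean signal, 46 of the 52 lay in the brightest of 3 equal groups of the 16342 genes measured, 4 in the middle and 2 in the dimmest. The spread of replicate spots of a probe gave an SD of 0.10 for a log2 difference between the arrays in the brightest group, 0.14 in the middle group and 0.29 in the dimmest. It covers the measurement on the array and leaves out differences between mice. Separate bright probes for the same gene differed in their change by 0.10 at the median of 702 genes and by more than 0.43 for 10% of them. Hepatocyte markers, Alb, Ttr, Apoa1, Trf, Serpinc1 and Fgb, were all well above background, with changes between -0.07 and 0.06.

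Across the 50 genes measured on both arrays the changes ran from -1.72 for Sds to 0.92 for Nags. The median was -0.11 and turned to 0.07 with each array scaled by its median, which shifts the median of all genes to 0.12 from 0.00. A total of 33 genes were below 0 and 17 above, 23 of them within 0.20 of 0. Over the 6 ways of scaling and combining the signals, 15 genes were lower upon feeding under every one and 16 were higher under every one, while 19 took both signs. Of these, 17 lay within 0.20 of 0 as reported. All of them but Gstz1 were below 0 as reported and above 0 with scaling by the median. The counts of 15 and 16 therefore depend on a setting that shifts all genes upward. At the 2-fold threshold of the study's methods, 1 of 52 genes (1.92%) was lower and none was higher, where 4.62% of all genes measured were lower and 3.29% higher. Among the brightest group 3.71% were lower and 2.09% higher. At 1.5-fold, 6 of the 52 (11.5%) were lower, where 10.6% of all genes and 8.72% of the brightest group were. In the other direction 2 of the 52 (3.85%) were at least 1.5-fold higher, where 10.5% of all genes and 8.61% of the brightest group were. The share of the enzymes that were lower was thus near the background on these arrays. The median size of a change, without its sign, was 0.21 for these genes and 0.25 for the brightest group.

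**Figure D1:**
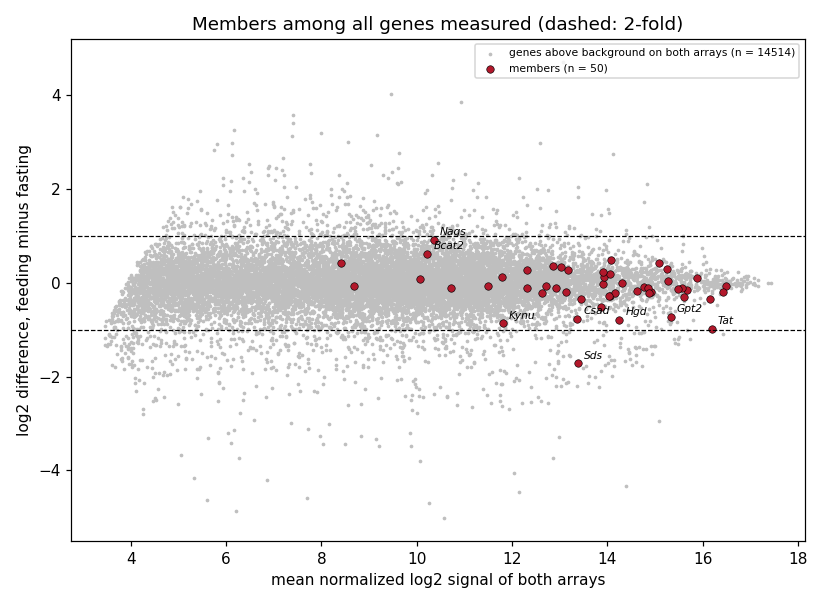
The log2 difference, feeding minus fasting, is plotted against the mean normalized log2 signal for the 14514 genes well above background on both arrays (grey) and for the 50 enzymes among them (red); dashed lines mark 2-fold. Most of the enzymes sit at the bright end and near 0, Sds alone lies below the lower dashed line, and Tat lies just inside it.

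**Figure D2:**
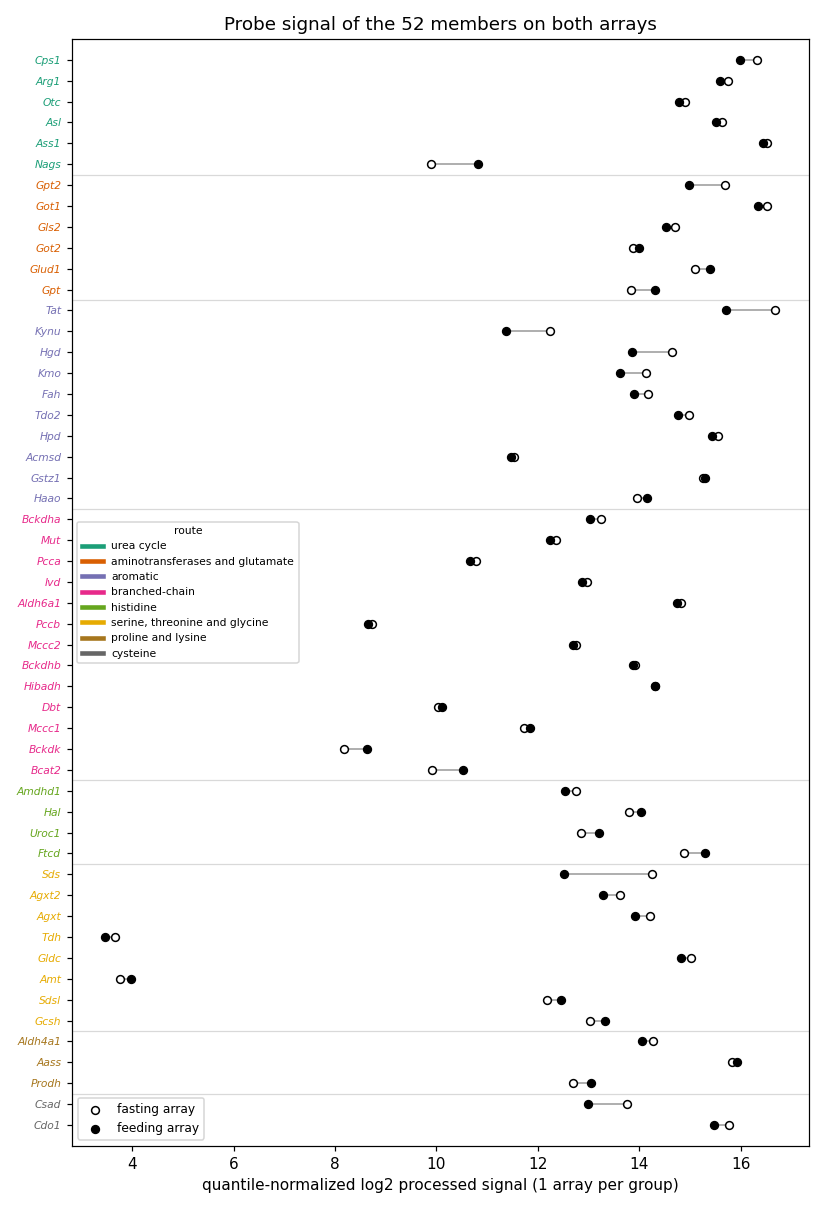
Normalized log2 signal of each of the 52 genes on the fasting array (open circles) and the feeding array (filled circles), ordered by route and, within a route, by change. The gap between the circles is widest for Sds, Tat and Nags, and Tdh and Amt sit near the background; the positions of different genes are not comparable, since each has its own probe.

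Promoter sequence is shown for the genes at least 1.5-fold apart that have a single promoter in RefSeq (build GRCm38.p6), since these are the genes the comparison turns on. Sds and Kynu are not in the promoter table used here, and Csad and Bcat2 have 2 promoters each. The 250 bases before the start are given 5′ to 3′, all on the plus strand, for Tat (chr8:109990186-109990435), Hgd (chr16:37579903-37580152), Gpt2 (chr8:85492326-85492575) and Nags (chr11:102145263-102145512), with matches to any of the motifs searched in capitals.
Tat: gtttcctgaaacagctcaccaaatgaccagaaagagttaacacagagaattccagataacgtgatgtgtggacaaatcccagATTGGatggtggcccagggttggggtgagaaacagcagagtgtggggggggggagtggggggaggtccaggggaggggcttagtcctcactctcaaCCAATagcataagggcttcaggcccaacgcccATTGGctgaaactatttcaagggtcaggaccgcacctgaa
Hgd: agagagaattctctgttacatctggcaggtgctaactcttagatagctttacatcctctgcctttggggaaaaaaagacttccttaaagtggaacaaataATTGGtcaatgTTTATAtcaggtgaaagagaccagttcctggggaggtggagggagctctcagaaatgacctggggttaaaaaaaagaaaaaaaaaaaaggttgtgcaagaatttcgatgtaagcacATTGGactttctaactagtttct
Gpt2: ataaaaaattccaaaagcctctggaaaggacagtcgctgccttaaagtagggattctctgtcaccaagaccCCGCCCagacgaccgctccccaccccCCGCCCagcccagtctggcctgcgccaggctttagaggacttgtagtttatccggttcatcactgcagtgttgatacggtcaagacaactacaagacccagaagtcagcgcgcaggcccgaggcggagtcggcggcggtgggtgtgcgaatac
Nags: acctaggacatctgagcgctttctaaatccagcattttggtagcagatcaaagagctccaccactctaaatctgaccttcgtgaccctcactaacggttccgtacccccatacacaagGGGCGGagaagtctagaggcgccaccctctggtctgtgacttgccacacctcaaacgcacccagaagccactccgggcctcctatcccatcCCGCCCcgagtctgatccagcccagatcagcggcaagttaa

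Promoters of a chromosome left out of the search, and any sequence of another length, were removed beforehand. Motifs were searched on both strands in these 250 bases for the 40 of the 52 genes with a promoter kept (47 promoters) and for all 32851 promoters kept. The Tat window holds 3 matches to the CCAAT box (CCAAT), which begin 168, 72 and 40 bases before the start, and Hgd holds 2 of them besides a TATA box (TATAAA) on the minus strand. Gpt2 and Nags each hold 2 GC boxes (GGGCGG). None of the 4 windows holds the CREB full site (TGACGTCA) or the short CREB site (TGACG, which lies within the full site), the FoxO site (GTAAACA), the glucocorticoid receptor site (AGAACA), or the C/EBP sites (TTGCGCAA and TTGCAA). The short CREB site was in 6 of the 47 promoters (12.8%) against 17.8% of all promoters, the glucocorticoid receptor site in 5 (10.6%) against 16.1%, and the CCAAT box in 24 (51.1%) against 33.8%. The CREB full site was in none of the 47 and in 1.55% of all. The other shares were 2.13% of the 47 and 3.17% of all for the FoxO site, 6.38% and 5.34% for the shorter C/EBP site, 0 and 0.164% for the longer, 17.0% and 12.4% for the TATA box and 36.2% and 32.7% for the GC box. A match describes the letters of a window of this length, not a bound site, and the absence of one says only that these letters are not in it.

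In the serine, threonine and glycine route, serine dehydratase, which turns serine into pyruvate and ammonia, was the one enzyme past 2-fold. The Sds probe had a signal of 19515 upon fasting and 5844 upon feeding. After normalization Sds fell by 1.72 on the log2 scale (3.29-fold), which is many times the spot SD of 0.10. The array software's own error estimate for its single probe gave a larger SD of the difference, 0.20. In all, 249 of the 16342 genes measured (1.52%) fell further. Under the other scalings and the other background correction its change was between -1.72 and -1.50.

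Its relative Sdsl, which encodes a serine dehydratase-like enzyme and is the direct neighbour of Sds on chromosome 5 in the RefSeq annotation, went from 4705 to 5552, a change of 0.28. The pair therefore differed in direction under every setting tried. Threonine dehydrogenase, Tdh, which oxidises threonine in the mitochondria, was close to background. Its probes had signals of 13.3 and 4.63 upon fasting and 10.6 and 10.8 upon feeding. Neither was well above background upon fasting, so no fold is given.

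Glycine is broken down by the mitochondrial glycine cleavage system, of which Gldc is the decarboxylase, Amt the aminomethyltransferase and Gcsh the lipoyl carrier protein. Gldc went from 33645 to 28604 (-0.19) and changed sign with scaling by the median, at 0.00. Gcsh went from 8471 to 10243 (0.29), and its other probes gave 0.46 and, at a signal near background, 0.35. Amt was dim, with 14.2 upon fasting and 14.9 upon feeding. It was not well above background upon fasting, and its bound after normalization, 0.13 on the log2 scale, was smaller than the spot SD of 0.29 for the dimmest group, so no direction is given. Agxt and Agxt2, the alanine-glyoxylate aminotransferases, which turn glyoxylate into glycine with alanine as the amino donor, went from 19049.5 to 15389.6 (-0.29) and from 12705 to 9906 (-0.34). Both were below 0 under every setting. Over the 6 genes of this route measured on both arrays, the median change was -0.24.

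**Figure D3:**
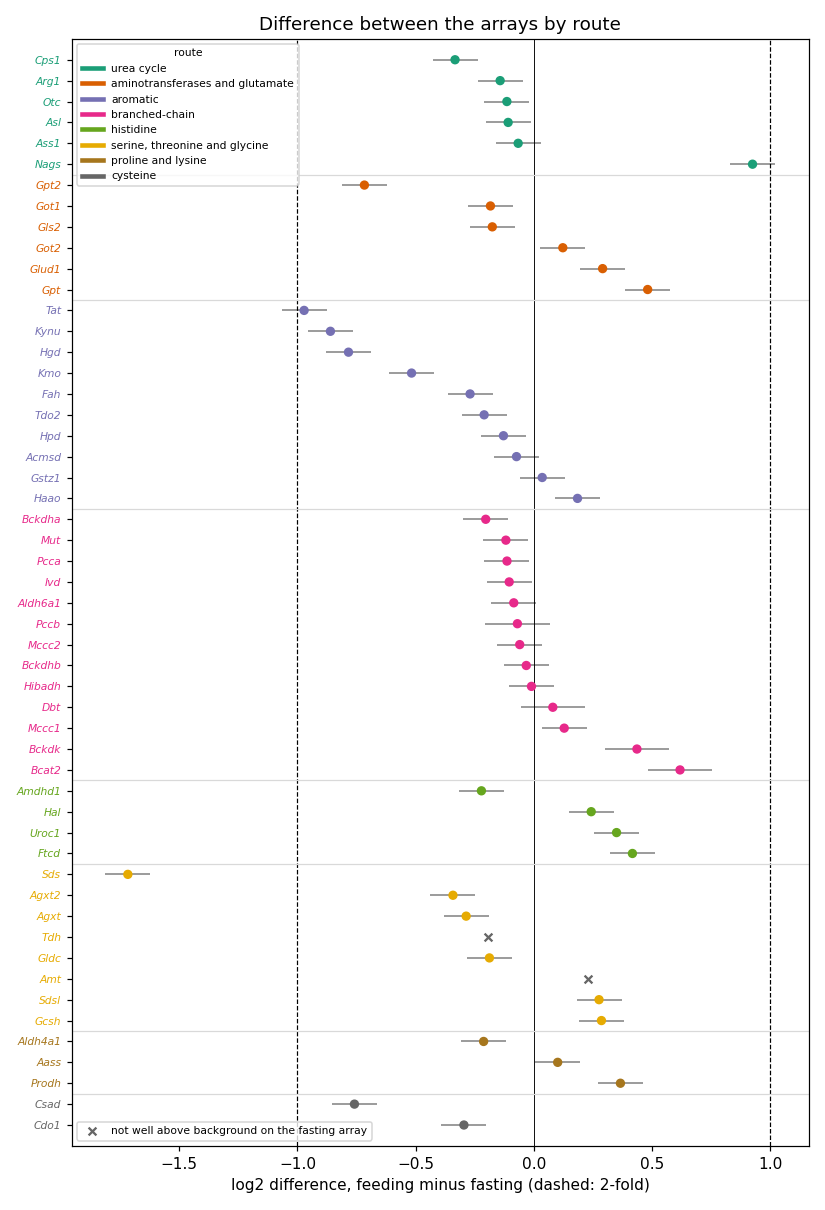
Log2 difference, feeding minus fasting, for each gene, coloured by route, with bars of 1 SD of replicate spots at that brightness (not a spread between mice); crosses are the 2 genes not well above background upon fasting and dashed lines mark 2-fold. In the aromatic route 8 of 10 points lie left of 0 and in the histidine route 3 of 4 lie right of it, while points of the branched-chain route are packed around 0.

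The aromatic route held the next lowest values, with 3 of its 10 genes at least 1.5-fold lower. Of all genes measured 10.6% were lower by this much, and of the brightest group 8.72%. Tyrosine aminotransferase, which takes the amino group off tyrosine in the first step of its breakdown, had a Tat signal of 106618.5 upon fasting and 51968.5 upon feeding. The change was -0.97 (1.96-fold), just short of the threshold by less than 1 spot SD, and it passed with another background correction (-1.02). In total 796 of the genes measured were lower by more. Homogentisate dioxygenase, Hgd, which opens the aromatic ring 2 steps later, went from 25967 to 14791 (-0.78). The enzymes around it were closer to 0. Hpd, the hydroxyphenylpyruvate dioxygenase between Tat and Hgd, changed by -0.13, Gstz1, the maleylacetoacetate isomerase, by 0.04 and Fah, the fumarylacetoacetase that ends the route, by -0.27.

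Tryptophan breakdown, the kynurenine pathway, starts with tryptophan dioxygenase. Tdo2 went from 32716 to 27318, a change of -0.21. Kynurenine is then hydroxylated by Kmo and cleaved by Kynu. Kmo had 18070.5 upon fasting and 12467 upon feeding (-0.52), and its second probe gave -0.51. Kynu went from 4913 to 2626 (-0.86), and its second probe, from 3907 to 2649, gave -0.53, so that the size of this difference depends on the probe. Haao, which makes the precursor of quinolinate, changed by 0.18 and Acmsd, which diverts that precursor from NAD synthesis towards complete oxidation, by -0.07. None of the 10 genes was 1.5-fold higher. Their median change was -0.24 and stayed below 0 with scaling by the median, at -0.04. Outside the list, 12 other genes of the aromatic pathways were well above background on both arrays, and none was 1.5-fold lower. Of these, 4 lay below 0 and 8 above, with a median of 0.10. The listed enzymes thus had the lower median, with genes on both sides of 0 in each list. Both lists were chosen with earlier results of these data known.

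In the urea cycle the 5 enzymes of the cycle itself differed little between the arrays. Cps1, which makes carbamoyl phosphate from ammonia in the mitochondria, had the largest change of these, from 84447 to 63154 (-0.33), and was lower under every setting. Otc, which joins carbamoyl phosphate to ornithine, went from 31249 to 27867 (-0.11). A second Otc probe, spotted 10 times, measured 7991 ± 376 upon fasting (SD, n = 10 spots) and 6347 ± 199 upon feeding (SD, n = 8 spots). Without scaling between the arrays, its lowest fasting spot was 7463 and its highest feeding spot 6685. The median signal of the feeding array was also lower, at 52.8 against 61.5. How many other probes spotted 10 times separate in this way was not counted, so no result is drawn from the gap. After normalization this probe gave a change of -0.30, and the spots of an array are repeats of 1 pool, not of mice. Asl and Ass1, which split and build argininosuccinate, were also near 0. Asl changed by -0.11. Ass1 went from 98292 to 86136 (-0.07), and its second probe, from 84209.5 to 84815.5, gave 0.12. Arginase, Arg1, which releases urea, changed by -0.14. Otc, Ass1, Asl and Arg1 each turned positive with scaling by the median, and Ass1 also with another background correction and with the mean of its probes.

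Nags was the exception in this route and had the highest value of the 50 genes measured on both arrays. It encodes N-acetylglutamate synthase, the enzyme that makes the obligatory activator of carbamoyl phosphate synthetase. Its signal was 984 upon fasting and 1784 upon feeding, a change of 0.92 (1.90-fold), and it passed 2-fold only with scaling by the median (1.09). The direction was the same under every setting. The median change of the 6 genes was -0.11, or 0.06 with scaling by the median.

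Among the aminotransferases and the enzymes of glutamate 3 genes were below 0 and 3 above, and none was past 2-fold. The alanine aminotransferases exchange alanine and pyruvate, and their 2 genes were opposed. Gpt2, the mitochondrial enzyme, went from 54495 to 31704 (-0.72, 1.64-fold), whereas Gpt, the cytosolic enzyme, went from 14668 to 20159 (0.48, 1.40-fold). Each kept its direction under every setting. The aspartate aminotransferases showed a smaller split of the other kind, with cytosolic Got1 at -0.18 and mitochondrial Got2 at 0.12. Glud1, glutamate dehydrogenase, changed by 0.29, and its second probe gave 0.40. Gls2, the liver glutaminase that feeds ammonia to the urea cycle, changed by -0.18 and was above 0 only with scaling by the median (0.03). The median of these 6 genes was -0.03, and it was above 0 with normexp (0.02), scaling by the 75th percentile (0.05) and scaling by the median (0.18).

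The histidine route was the one of at least 4 genes in which most lay above 0. Its enzymes act in a row. Hal removes ammonia from histidine and went from 14314.5 to 16692 (0.24). Uroc1, urocanate hydratase, went from 7496 to 9397 (0.35). Amdhd1, imidazolonepropionase, was lower, from 6935 to 5845 (-0.22). Ftcd, which passes the last one-carbon unit to folate, went from 30479 to 39424 (0.42). Each kept its direction under every setting, though Amdhd1 was only at -0.01 with scaling by the median. None reached 1.5-fold as reported, and the median was 0.30. Outside the list, 4 other genes of histidine were well above background on both arrays, 2 below 0 and 2 above, with a median of -0.04.

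The branched-chain route, which takes leucine, isoleucine and valine to propionyl-CoA, acetyl-CoA and succinyl-CoA, had most of its genes close to 0. Of its 13 genes none was 2-fold different, and 11 lay between -0.20 and 0.13. The branched-chain ketoacid dehydrogenase complex, which commits the carbon skeletons to oxidation, was represented by Bckdha (9721 and 8313, -0.20), Bckdhb (-0.03) and Dbt (0.08). The 8 enzymes after it ran from -0.12 to 0.13. In this order, Ivd, the isovaleryl-CoA dehydrogenase of leucine, changed by -0.10, the methylcrotonyl-CoA carboxylase subunits Mccc1 and Mccc2 by 0.13 and -0.06, Hibadh and Aldh6a1 of valine by -0.01 and -0.09, the propionyl-CoA carboxylase subunits Pcca and Pccb by -0.11 and -0.07, and Mut, the methylmalonyl-CoA mutase, by -0.12. Probes disagreed for Aldh6a1 (-0.09 and -0.43) and in direction for Mccc1, where 1 probe went from 3416 to 3664 (0.13) and the other from 984.9 to 883.8 (-0.05).

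The 2 genes of this route that lay further from 0 were both in the middle group by signal. Bcat2, the mitochondrial branched-chain aminotransferase, went from 996 to 1447 (0.62, 1.54-fold). Bckdk, the kinase that phosphorylates and switches off the dehydrogenase complex, went from 308 to 372 (0.44, 1.35-fold). The opposing phosphatase was the gene of the pathway that differed most. Ppm1k, which removes this phosphate and so activates the complex, is outside the 52 and went from 3714.5 to 659.3, a fall of 5.37-fold (-2.42). The phosphatase thus lay far from the subunits of the complex it acts on, which were close to 0. The median of the 13 genes was -0.06, or 0.02 with scaling by the 75th percentile and 0.15 with scaling by the median.

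Of the remaining routes, proline and lysine had Prodh, proline dehydrogenase, from 6655 to 8399 (0.37), Aldh4a1, which oxidises the product of Prodh to glutamate, from 19918 to 17003 (-0.21), and Aass, the first enzyme of lysine breakdown, at 0.10. Both genes of the cysteine route were lower upon feeding under every setting. Cysteine dioxygenase, Cdo1, which oxidises cysteine to its sulfinate, went from 57761.5 to 44770.0 (-0.30). Csad, the decarboxylase that turns this sulfinate towards taurine, the amino acid to which mouse bile acids are conjugated, went from 13793 to 8031 (-0.76, 1.69-fold).

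**Figure D4:**
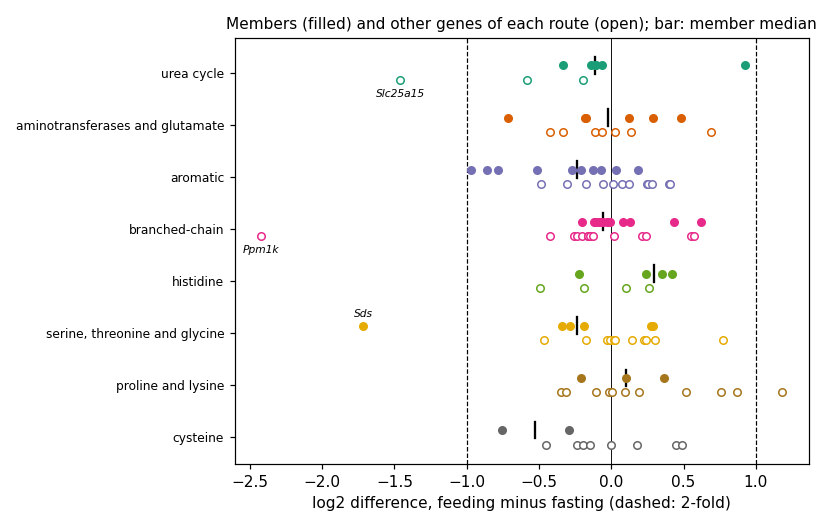
Log2 difference, feeding minus fasting, of the 52-gene list (filled) and of other genes of the same pathways (open) that were well above background on both arrays, by route, with a black bar at the median of the filled points. Ppm1k, Sds and Slc25a15 lie furthest left; the medians of the urea cycle, aminotransferase and branched-chain routes, between -0.11 and -0.03, turn positive with scaling by the median.

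A list of 77 further genes of these pathways was set beside the 52. Of them 76 had a probe and 73 were well above background on at least 1 array. The median of the 70 measured on both arrays was 0.00, with 35 below 0 and 35 above. Past 2-fold, 2 of the 73 were lower and 2 higher, where the shares for all genes are those given above. Besides Ppm1k, the lower one was Slc25a15, which carries ornithine and citrulline across the inner mitochondrial membrane between the steps of the urea cycle. Its signal was 2934 upon fasting and 1025 upon feeding, a fall of 2.75-fold (-1.46), beside changes between -0.33 and -0.07 for the enzymes of the cycle. Of the higher ones, Dao, D-amino acid oxidase, was not well above background upon fasting (4.30) and had 36.6 upon feeding. The bound for Dao is at least 2.74-fold higher.

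Cell types other than hepatocytes contribute to whole liver RNA, and in such RNA fewer cells of a type and less RNA per cell cannot be told apart. Of the endothelial markers 5 of 5 were below 0, with 1 past 2-fold (Pecam1), a median of -0.35, and summed signals of 35701 and 26983 on the fasting and feeding arrays. Stellate cell markers had 3 of 4 below 0 (median -0.33, summed signals 31448 and 26117). Kupffer cell markers had 5 of 6 below 0 (median -0.17, summed signals 48957 and 38366). The 4 bile duct markers were dim, with summed signals of 113 and 97.7. These sums are not scaled between the arrays and weigh the brightest probes most. The sums of the hepatocyte markers were also lower on the feeding array, at 569060 and 531267. So were those of the periportal (252504 and 239249) and pericentral markers (168001 and 158665). Since urea cycle enzymes, Sds, Hal and Gls2 are known to be higher near the portal vein, periportal and pericentral marker lists were also read. Their medians were 0.06 and 0.00, with 1 of 6 and 1 of 8 genes at least 2-fold higher and none 2-fold lower. Single markers spread widely, from -0.35 to 2.11 in the periportal list and from -0.70 to 1.15 in the pericentral list. Below 0 lay 2 of the 6 and 4 of the 8. The part of these cell types or zones in the changes of the 52 genes was not tested.

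**Figure D5:**
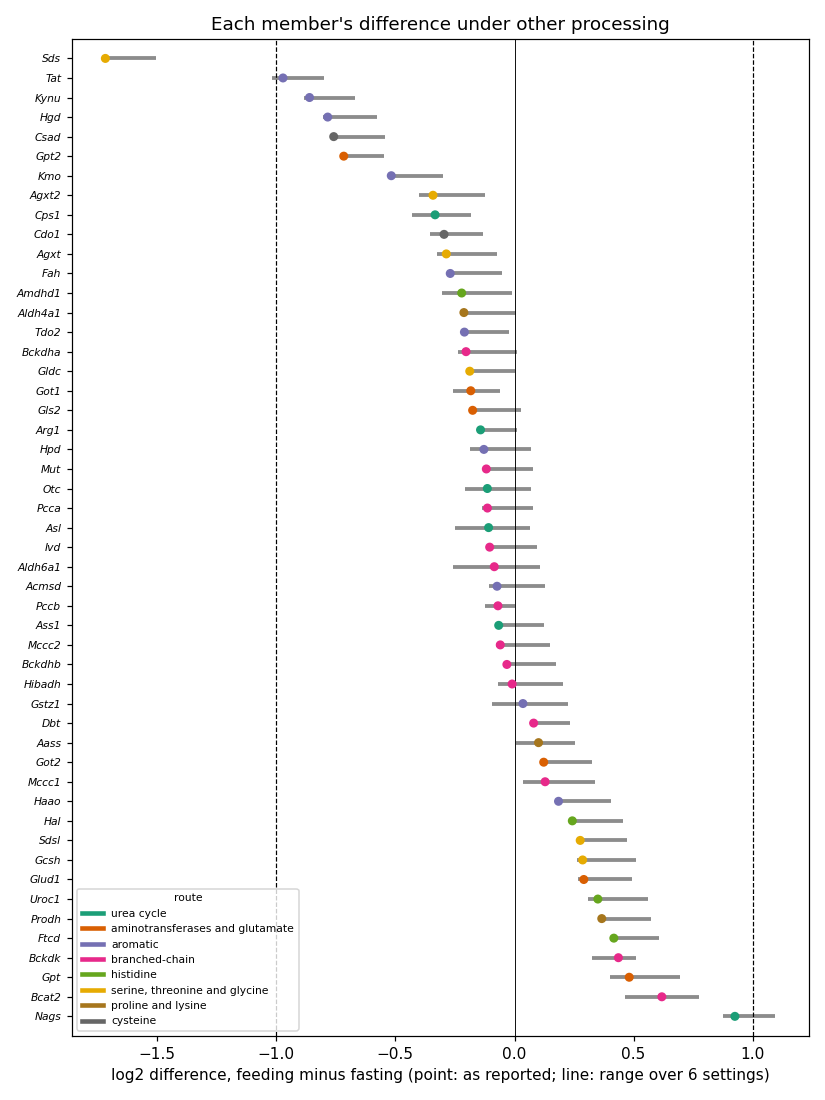
Log2 difference, feeding minus fasting, of the 50 genes measured on both arrays, as reported (points, coloured by route) and the range over the 6 ways of scaling, correcting and combining the signals (lines). Lines that stay on 1 side of 0 belong to 31 genes, from Sds, never above -1.50, to Nags, never below 0.87, and the 19 that cross 0 lie in the middle.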

How the data were processed

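The authors labelled pooled liver RNA with Cy3 and read each array with Agilent Feature Extraction 11.0.1.1. The deposited intensities per spot are background subtracted, without scaling between arrays. There were 44397 spots per array, including 1377 controls, and none was saturated. Of the other spots Feature Extraction marked 63.1% as well above background on the fasting array and 72.3% on the feeding array. The deposited value table equals the local background of all 44397 spots (tolerance 1e-06) and was not used further. No column gives counts, and the number of arrays limits the precision.

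Control spots and outlier spots (123 and 98) were removed, log2 intensity was averaged over spots of a probe and quantile normalized, as in the methods. A probe was well above background where most of its spots were. Probes were named by RefSeq transcript (27218 of 39402 matched, annotation GRCm38.p6; the array design names mm9), and the brightest probe stood for a gene. A gene not well above background on 1 array has only a bound, for which its signal there was replaced by the lowest one well above background if that was higher. Calls are at 2-fold, with no test. The pathway list and the further lists were chosen with earlier results of these data known, and the CCAAT and GC boxes after values were seen. All genes of the list are named, with both signals for those past 2-fold, the 2 furthest from 0 in each route and those whose probes disagree in sign, and other genes of the pathways only past 2-fold, of which 1 is not reported here. Alternatives used limma 3.58.1 in R 4.3.3 (normexp, offset 50) and Python 3.11.15. The steps were run on simulated data with 14632 genes, in which both arrays were copies of the fasting array with spot noise and a uniform scale. The procedure called 66 of 66 genes set to 2.5-fold, 67 of 67 set to 4-fold, 1 of 67 set to 1.5-fold and 1 of 14432 left as they were. The copies hold no differences between mice, pools or hybridizations. These counts therefore check the calculation and give no error rate for the 2 real arrays. Comparing proteins of related enzymes was planned and not done, for want of a protein table.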

Additional observations from a re-analysis of the deposited data

How the results depend on the processing

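With each array scaled by its median, Sds was still past 2-fold lower, 1 gene (Nags) was past 2-fold higher, and the medians moved to 0.0734 for all genes of the list, 0.0551 for the urea cycle, 0.18 for the aminotransferases, -0.0379 for the aromatic route, 0.15 for the branched-chain route, 0.51 for histidine and -0.0359 for serine, threonine and glycine. With normexp 2 genes were past 2-fold lower, Sds and Tat. At 1.5-fold 6 were lower and 2 higher. Counts equalled those reported, and medians moved by less than 0.10 (to 0.05 for the aminotransferases and 0.02 for the branched-chain route with scaling by the 75th percentile, where both changed sign), with scaling by the 75th percentile, the mean of a gene's probes, outlier spots kept, no bound, both arrays required, and at 3-fold (1 lower). Over all genes measured, 755 were 2-fold lower and 537 higher as reported, 648 and 717 with scaling by the median, and 312 and 215 with normexp. Naming by a gene name column was not run, since the array files used here have none. No paired analysis was possible because each group has 1 array. Depth of signal limits Tdh and Amt, and differences between mice were not measured.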
